A study of Mus musculus with 2 samples.

Results

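Naive mRNA cluster 6 is the group of 55 cells that carry this label in the authors' clustering of the mRNA values of conventional type 2 dendritic cells (cDC2s) from naive mice. It holds 55 of the 2024 naive cells with an mRNA cluster label (2.72%, 95% exact Clopper-Pearson interval 2.05 to 3.52%), of 3471 naive cells and 11067 cells in the series. The members were taken by that label alone, and the 1969 labelled naive cells of the other 6 clusters were the comparison. The study used CITEseq, in which the mRNA and 12 antibody-bound surface proteins of each cell are counted together, on MHCIIhi CD11c+ B220- cells sorted from lymph nodes of C57BL/6 mice. One library came from unimmunized mice and 1 from mice given ovalbumin (OVA) plus papain, a protease allergen, in the footpad 1 day earlier. The labels give skin-draining nodes as the tissue of both and name popliteal nodes in the protocol, while the methods give pooled skin-draining nodes for the naive and popliteal nodes for the papain library. Each condition is 1 library of pooled cells, so no difference has a replicate check and no test was made. Intervals of levels, ratios and shares cover counting error only. Intervals of medians cover the spread over the cells of 1 library, which are not replicates.

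The cDC2s take up antigen in the skin and other tissues, switch on the chemokine receptor CCR7 and travel through lymph vessels to the draining node, where they show peptides on MHC class II to CD4+ T cells. Migratory cells are known for high surface MHC class II and for a maturation program that includes Ccl22, Fscn1 and Cd40. The lectin CD301b, encoded by Mgl2, marks the skin cDC2s that the study links to type 2 T cell responses.

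The surface proteins were read through short DNA barcodes on the antibodies. Barcodes are shown for CD172a and XCR1, which the study used with CD326 to tell its cDC2s apart, but not for CD326. Those of CD11c and CD301b are shown because their values are compared below. Capitals mark the sequence that the feature table lists for both CD11b and CD24.
CD301b: cttgccttgcgattt
CD11c: gttatggacgcttgc
CD172a: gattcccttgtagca
XCR1: tccattacccacgtt
CD11b and CD24: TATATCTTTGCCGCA
The values listed for CD11b and CD24 had a median count ratio of 1.2 over labelled naive cells, and these 2 antigens are not read apart here.

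Cluster 6 cells held little mRNA and an ordinary amount of antibody. The cells had between 3659 and 10645 mRNA UMIs (unique molecules counted), with a median of 5929 (95% interval from ranks 5350 to 6554). The medians of the other 6 clusters were 9893 to 20541 UMIs. Antibody counts had a median of 8323 per cell (6896 to 9173), within the range of the other clusters' medians (5434 to 9259). The median ratio of antibody counts to UMIs was therefore 1.34 in cluster 6 and 0.531 in the other labelled cells. No cell of cluster 1 or 2 was as shallow as the third quartile of cluster 6 (6956 UMIs), while 72 other labelled cells were, 64 of them in cluster 3.

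**Figure D1:**
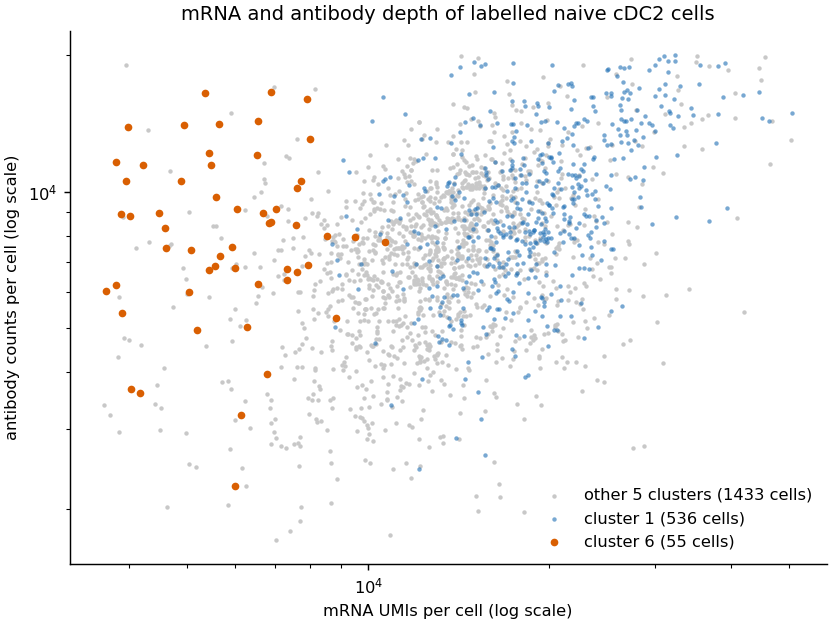
Antibody counts against mRNA UMIs of every labelled naive cell, both on log axes, with 1 point per cell. The 55 cells of cluster 6 lie at 3659 to 10645 UMIs, at the left edge, while their antibody counts of 2244 to 16538 lie within the span of the other clusters.

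At the same depth the cells did not hold fewer genes. A cluster 6 cell had a median of 1999 detected genes against 3105 in the other labelled cells, but when each cell was thinned to 3600 UMIs the expected number was 1486 (1440 to 1511) against 1364 (1358 to 1368). The thinned number was 1406 in cluster 1 and 1509 in cluster 7. The protein-coding mitochondrial genes mt-Co1, mt-Co3, mt-Cytb and the mt-Nd genes took 1.49% of the UMIs of a median cluster 6 cell. Their share was 0.824% in the median other labelled cell, and the 2 mitochondrial rRNAs took 2.76% and 3.02%. A Cd3e or Trac UMI, a sign of T cell RNA, was found in 3 of 55 cells (5.45%, 1.14 to 15.1%) and in 87 of 1969 others (4.42%), of which 28 were in cluster 7. None of the 55 cells was called a doublet, although the caller marked 3 of 3471 naive cells in all and no cell was removed. The MHC class II, CD11c and CD301b antibodies were also bound to dyes for the sort, and MHC class II and CD11c set its gate.

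Cells entered the mRNA clustering only if the authors had called them cDC2s from clusters of the surface antibodies, so the antibody values against other cell types were fixed by that choice and are given as a description. The antibody values are natural logarithms of a centred count ratio plus 1. CD172a, a cDC2 marker, ranged from 1.04 to 2.70 in cluster 6 with a median of 1.64 (1.53 to 1.86), against 0.123 in naive cDC1s and 0.751 in Langerhans cells (LCs). XCR1, the marker of cDC1s, had a median of 0.105 against 1.26 in cDC1s, and CD326, high on LCs, 0.459 against 3.42 in LCs.

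Among the labelled cDC2s, which were all chosen in that way, the mRNA clusters were made without the antibody values. In cluster 6 CD11c and CD301b were higher and CD8a was lower than in the rest. CD11c, an integrin of dendritic cells, had a median of 2.87 (2.47 to 3.22) in cluster 6 and 2.16 (2.08 to 2.23) in the other labelled cells, and CD301b 1.61 (1.27 to 1.93) and 1.22 (1.16 to 1.27). CD8a was 0.316 (0.236 to 0.486) against 0.517 (0.480 to 0.547). All 3 medians lay close to those of cluster 1, at 2.67 for CD11c, 1.75 for CD301b and 0.337 for CD8a. The other clusters spread widely around the pooled values. CD11c was 3.65 in cluster 5 and 1.43 in cluster 3, and CD8a was 0.353 in cluster 5 and 0.979 in cluster 2. CD301b was 1.595 in cluster 2. For the other 9 antibodies, the interval of the cluster 6 median held the median of the other labelled cells, as for surface MHC class II (5.45, against 5.48). These intervals reflect the spread over cells of 1 library, so they describe the values and do not test a difference. As a share of all antibody counts of the cell, MHC class II was 86.7% in cluster 6, 86.7% in cluster 1 and 91.0% in the other labelled cells.

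**Figure D2:**
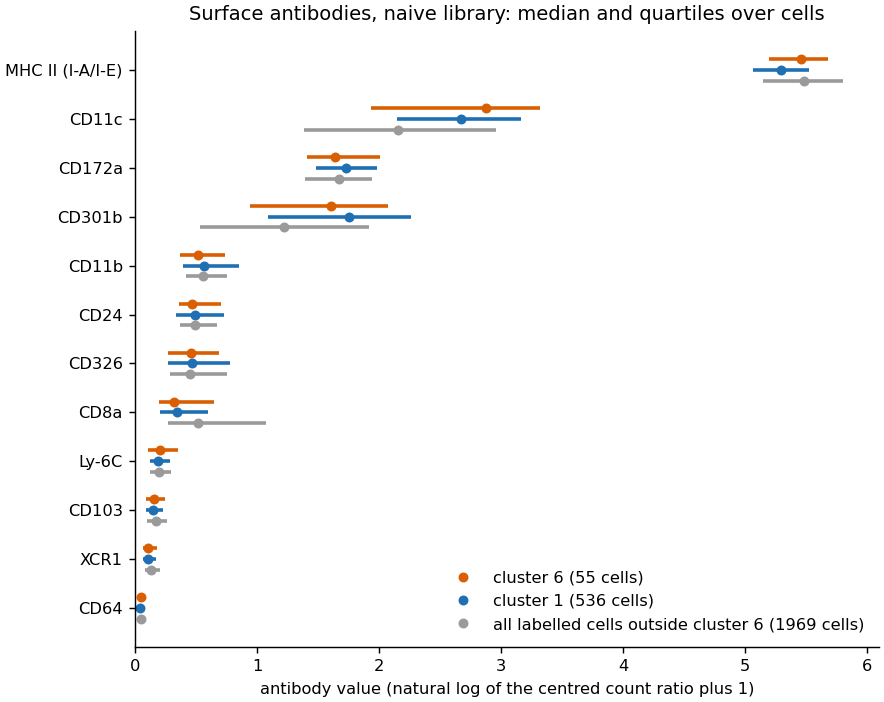
Median (point) and quartiles (bar) of the 12 antibody values over the cells of cluster 6, cluster 1 and all labelled naive cells outside cluster 6, on a natural log scale. Cluster 6 lies beside cluster 1, with CD11c at 2.87 and 2.67 and CD301b at 1.61 and 1.75.

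All 3 CD301b classes of the authors were found in the cluster. Of the 55 cells, 26 were CD301bhi (47.3%, 33.7 to 61.2%), 19 CD301bint (34.5%) and 10 CD301blo (18.2%, 9.08 to 30.9%). The other labelled cells were 34.6%, 32.5% and 32.9% of these classes. Clusters 1 and 2 were closest, with 53.4% and 47.7% CD301bhi cells. In turn, cluster 6 made up 3.68% of labelled CD301bhi cells (2.42 to 5.34%) and 1.52% of CD301blo cells (0.731 to 2.78%).

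The transcript of CD301b was sparse. Mgl2 was found in 3 of 55 cells with 11 UMIs, at 33.3 CPM (UMIs of the gene per 1000000 UMIs, summed over the cells) against 45.1 CPM in the other labelled cells. Cluster 5, 15.9% CD301bhi, had 276 CPM, and cluster 1, 53.4% CD301bhi, 1.88 CPM. The summed Mgl2 level was 6.49 CPM in the CD301bhi cells of cluster 6, from 1 UMI (0.164 to 36.2 CPM). In its CD301bint cells it was 88.9 CPM, from 10 UMIs (42.7 to 164 CPM). These levels rest on the 3 cells with a UMI. Sirpa, which encodes CD172a, stood at 152 CPM against 96.7 CPM, and Itgax, which encodes CD11c, at 81.8 against 80.3 CPM.

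For mRNA, UMIs were summed over each group of cells, 330075 in cluster 6 and 30652065 in the other labelled cells, and genes with a mean of at least 25 CPM over the 2 groups were compared. The clusters were made from these same values, so the levels describe the cluster and are no evidence for it. Of 4485 genes, 579 (12.9%) were at least 2-fold higher in cluster 6 and 316 (7.05%) at least 2-fold lower. These shares are the background for the counts of each gene list below. The median log2 ratio of all genes compared was 0.25, so a list of genes with a median of 0.25 lay at the level of the rest. When the ratios were scaled to that median, the higher genes were 39.0% of those past 2-fold, in place of 64.7%. Depth differed between the groups for every gene, and its part in most ratios was not tested. Against the 72 other labelled cells no deeper than 6956 UMIs, of which 64 were in cluster 3, the log2 ratio was 2.74 for Ccl22, -1.65 for Ccl5, 2.58 for Actg1, 1.67 for Irf4, 2.07 for Itgb8, 1.98 for Il13ra1 and 2.81 for Rpl36a, each on the same side as against all other labelled cells. It was 0.33 for Il15, and Il1b, H2-DMa, Cxcl2, Ccl4, Egr3, Socs3 and Ifitm3, lower against all, were not lower against these cells.

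The migratory program held 2 chemokines at opposite ends. Ccl22, a chemokine that draws CCR4+ T cells (GRCm38 chromosome 8, 94745684 to 94751388), ranged from 0 to 29587 CPM over the 55 cells with a median of 2169, against a median of 452 in the other labelled cells and 1596 in cluster 1. It was detected in 54 cells, and the 2 groups overlapped widely. Summed, Ccl22 was at 5544 CPM (1830 UMIs) against 1693 CPM, a log2 ratio of 1.71 (1.64 to 1.78), and the log2 ratio against cluster 1 alone was 0.81. Ccl5, a chemokine that draws T cells and monocytes (chromosome 11, 83525778 to 83530518), ranged from 136 to 7573 CPM with a median of 1158, while the median was 2976 in the other labelled cells and 3715 in cluster 1. The summed levels were 1736 and 5445 CPM, for a log2 ratio of -1.65 (-1.77 to -1.53) and of -1.75 against cluster 1.

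Of the 18 migratory maturation genes above the filter, Ccl22 was the one at least 2-fold higher and Ccl5 the one at least 2-fold lower, and the median log2 ratio was 0.41 beside 0.25 over all genes, so the share past 2-fold was below that over all genes. Ccr7, the receptor for entry to the node, had 5029 CPM against 3647, and Fscn1, an actin-bundling protein of mature dendritic cells, 3396 against 1799 (log2 ratio 0.92, 0.83 to 1.00). Tmem123 and Marcksl1 had log2 ratios of 0.84 and 0.80. Ccl17, the partner of Ccl22 as a CCR4 ligand, was at 503 CPM against 342 in the other labelled cells but 701 in cluster 1, and 1 cell held 32.5% of its UMIs in cluster 6.

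Among 11 chemokines above the filter, 2 were at least 2-fold higher and 4 lower, where 12.9% and 7.05% of all genes were. Besides Ccl22, Cxcl3 was higher (48.5 against 13.6 CPM), with 62.5% of its 16 UMIs in 1 cell. Besides Ccl5, the neutrophil chemokine Cxcl2 was at 75.7 against 166 CPM, Ccl4 at 39.4 against 100 CPM with all UMIs in 1 cell, and the interferon-induced Cxcl10 at 6.06 against 50.3 CPM. Cxcl16 stood at 1375 against 844 CPM. Of 5 chemokine and lipid receptors, Gpr183, a receptor for oxysterols that guides cells within the node, was lower (161 against 322 CPM).

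**Figure D3:**
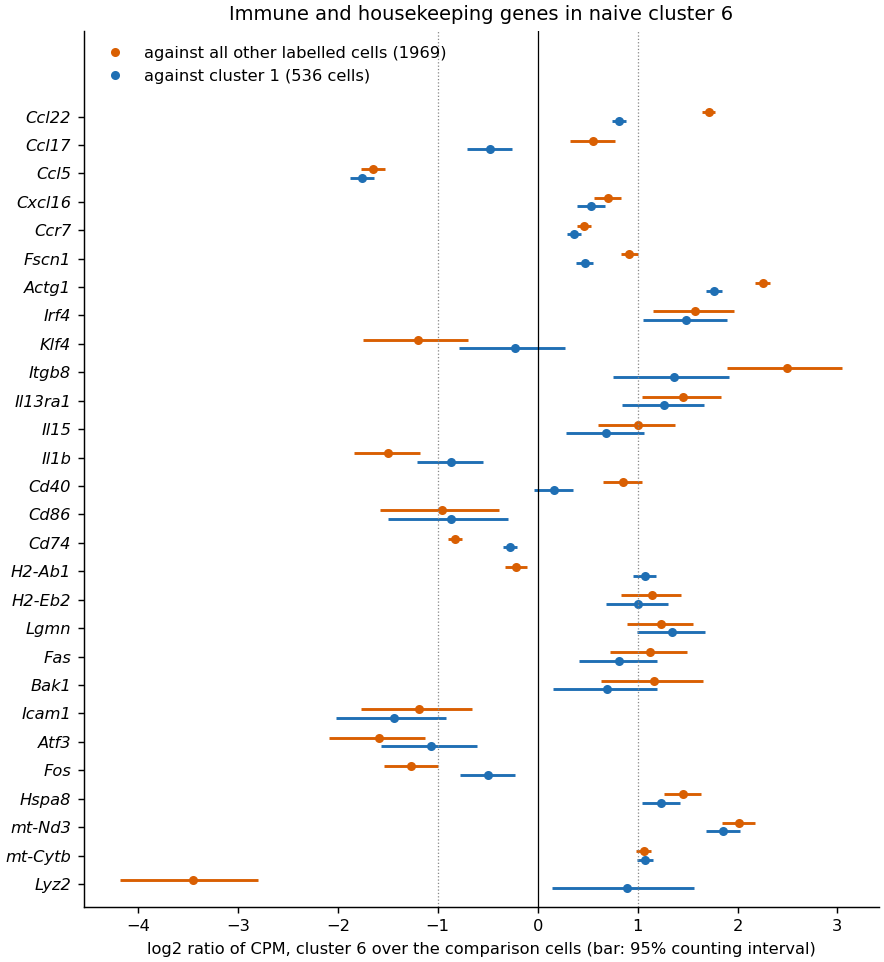
Log2 ratio of summed CPM in cluster 6 over all other labelled naive cells (upper point of each gene) and over cluster 1 alone (lower point), with 95% counting intervals and dotted lines at 2-fold. Ccl22, Actg1, Irf4, Itgb8 and mt-Nd3 lie to the right and Ccl5, Icam1 and Atf3 to the left in both comparisons, while Lyz2 is at -3.45 in the first and 0.89 in the second.

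The cDC2 genes included 2 transcription factors at opposite ends. All 11 listed cDC2 genes had a UMI in cluster 6, and of the 8 above the filter Irf4 was at least 2-fold higher and Klf4 lower, with a median log2 ratio of -0.48. Irf4, needed for the migration of cDC2s (chromosome 13, 30749233 to 30766981), was found in 19 of 55 cells and ranged up to 1659 CPM, with 161 CPM summed against 53.9 (log2 ratio 1.57, 1.15 to 1.97). No other naive cluster had over 66.5 CPM. Klf4, which is needed for a type 2-promoting cDC2 subset, was at 97.0 against 223 CPM, but cluster 1 had 114 CPM and cluster 5 724 CPM. Of 21 dendritic cell transcription factors above the filter, Irf4 and the repressor Bcl6 (51.5 against 24.8 CPM) were at least 2-fold higher, Klf4 and Id3 lower, and the median log2 ratio was 0.10. Over all genes, 12.9% were higher and 7.05% lower, so the small counts of both lists do not set these lists apart. Relb was at 318 against 542 CPM.

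MHC class II transcripts were at mixed levels. Of 9 above the filter, H2-Eb2 was at least 2-fold higher (288 against 131 CPM) and H2-DMa, which loads peptide, lower (69.7 against 159 CPM), with a median log2 ratio of -0.22. Among all genes, 12.9% were at least 2-fold higher and 7.05% lower. Cd74, the invariant chain, was at 5123 against 9092 CPM. H2-Ab1 was found in 40 of 55 cells and ranged from 0 to 13899 CPM with a median of 374, against a median of 169 in the others. Summed it was at 1948 against 2262 CPM, of which cluster 5 had 9317 CPM and cluster 1 928 CPM, so that the log2 ratio was 1.07 (0.95 to 1.19) against cluster 1. None of the 12 costimulation and checkpoint genes above the filter was past 2-fold. Cd40, the receptor through which T cells license dendritic cells, had 676 against 373 CPM, and Cd86, a ligand of CD28, 75.7 against 147 CPM. Over single cells the Cd40 median was 358.5 CPM in cluster 6 and 175.6 in the other labelled cells, but 474.1 in cluster 1.

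Of the genes of response to type 2 cytokines, 2 of 11 above the filter were higher and 1 lower, with a median log2 ratio of 0.53. Of all genes, 12.9% were higher and 7.05% lower. Il13ra1, a receptor chain for IL-4 and IL-13, was found in 32 of 55 cells (58.2%) at 170 CPM against 50.5% of cells and 62.0 CPM in the others (log2 ratio 1.45, 1.04 to 1.84), and at equal depth in 44.3% against 18.4% of cells. Ccl22 was the other, and Retnla was lower (6.06 against 92.0 CPM, with 464 CPM in cluster 5). Of 8 cytokines above the filter, 1 was at least 2-fold higher and 1 lower: Il15 was at 182 against 90.8 CPM and Il1b at 239 against 675 CPM. In cluster 1 they were at 113 and 435 CPM.

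Itgb8, the integrin chain that activates TGF-beta (chromosome 12, 119162803 to 119238276), was at 84.8 CPM against 15.01 (log2 ratio 2.50, 1.89 to 3.05). It was found in 12 of 55 cells (21.8%) and reached 946 CPM in 1 of them, and in 8.28% of the others, and the next highest cluster was cluster 1 with 33.0 CPM.

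Of 15 immediate early genes, 3 were at least 2-fold lower, Atf3 (115 against 345 CPM), Fos (348 against 837 CPM) and Egr3 (18.2 against 40.3 CPM), and none higher, with a median log2 ratio of -0.46. Over all genes, 895 of 4485 were past 2-fold either way, a like share, and 7.05% were lower. Dusp1 and Junb had log2 ratios of 0.82 and 0.35. Of 12 heat shock genes, 1 was at least 2-fold higher and none lower, where 12.9% of all genes were higher. It was the constitutive chaperone Hspa8 (742 against 271 CPM, log2 ratio 1.45, 1.26 to 1.64), while Hspa1a was at 161 against 166 CPM. Of 10 interferon-stimulated genes, 8 had a ratio above 1 and Cxcl10 was past 2-fold, lower. The median log2 ratio of the 10 was 0.54, beside 0.25 over all genes, so many genes outside the list were above 1 too. Ifitm3, which was not in this list, was among the 10 named genes with the lowest ratios. Of 6 cell cycle genes, Mki67 was lower (24.2 against 57.7 CPM).

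Of 13 survival and death genes, 3 were at least 2-fold higher, where 12.9% of all genes were, and none lower, and the median log2 ratio of 0.17 was below that of all genes. They were the death receptor Fas (179 against 82.0 CPM), the pore-forming Bak1 (103 against 45.9 CPM) and the caspase inhibitor Xiap (72.7 against 35.1 CPM). Bax was at 103 against 186 CPM and Mcl1 at 1076 against 748 CPM. When cells were thinned to 8355 UMIs, which left 4 cells of cluster 6, the log2 ratio was -3.20 for Fas and -0.97 for Bak1. Bcl2a1a was at 255 against 61.6 CPM and its near-identical relatives Bcl2a1d and Bcl2a1b at 821 against 1324 and 661 against 750 CPM, and reads of these copies may not be told apart.

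Actg1, which encodes gamma-actin (chromosome 11, 120345687 to 120348495), had one of the largest differences of an abundant gene. It was found in all 55 cells, from 789 to 12846 CPM with a median of 4074, against medians of 780 in the other labelled cells and 1223 in cluster 1. The summed level was 4735 CPM against 993 (log2 ratio 2.25, 2.18 to 2.33), while Actb had 25125 against 18314 CPM. Of 13 cytoskeleton and adhesion genes, Tmsb10 (409 against 859 CPM) and the adhesion molecule Icam1 (87.9 against 200 CPM) were lower. Of 16 uptake and lysosome genes, the protease Lgmn (242 against 103 CPM) and Grn (109 against 53.5 CPM) were higher and Lyz1 lower. The shares of all genes were 12.9% higher and 7.05% lower.

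Mitochondrial mRNAs were higher together. All 8 above the filter had a ratio above 1, with a median log2 ratio of 1.00, and mt-Nd1, mt-Nd3, mt-Nd4 and mt-Cytb were at least 2-fold higher. mt-Cytb ranged from 883 to 10844 CPM in the 55 cells with a median of 3505, against 1807 in the others. mt-Nd3 differed most, with a median of 905 against 192 CPM and a log2 ratio of 2.01 (1.84 to 2.17). Against the 72 other labelled cells as shallow as cluster 6, however, the log2 ratio was 0.55 for mt-Nd1, 0.71 for mt-Nd4 and 0.39 for mt-Cytb, and 1.73 for mt-Nd3. The rRNA mt-Rnr2 was at 26033 against 29365 CPM and mt-Rnr1 at 4866 against 2829 CPM.

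Lists of genes of other cell types were also counted. Of 17 listed monocyte and macrophage genes, 9 had a UMI in cluster 6, for a summed 149 CPM against 887, and Ly6c2 and Fcgr1 had none. Lyz2 (chromosome 10, 117277541 to 117282272) was at 57.6 against 628 CPM, but most of the latter was cluster 5 with 3763 CPM, and cluster 1 had 31.0 CPM. Lyz1 is a close copy of Lyz2 and their reads may not be told apart. The B cell list had a UMI in 1 of 12 genes (15.1 against 59.3 CPM), the T cell list in 12 of 14 (158 against 144 CPM), NK cell genes in 3 of 10 (45.4 against 74.2 CPM), plasmacytoid and transitional dendritic cell genes in 8 of 13 (345 against 351 CPM), LC genes in 5 of 9 (376 against 404 CPM) and cDC1 genes in 6 of 11 (542 against 492 CPM). Cd79a, Nkg7, Siglech, Cd207, Xcr1 and Clec9a had no UMI, which allows up to 9.09 CPM (3 UMIs) in cluster 6. Of the 2 T cell genes above the filter, Cd8a was at least 2-fold lower (15.1 against 42.2 CPM, 5 UMIs). The innate lymphoid list had a UMI in 9 of 10 genes and summed to 2751 against 2197 CPM, and of its 4 genes above the filter Rora was 2-fold higher (39.4 against 19.6 CPM). In 1 cell lay 76.9% of the Rora UMIs, and without that cell the log2 ratio was -1.08. The 1 listed neutrophil gene and the 1 mast cell gene had no UMI, and the 5 stromal and 2 keratinocyte genes summed to 12.1 and 3.03 CPM. Xbp1, in the plasma cell list with Irf4, was at 84.8 against 35.4 CPM. The conventional dendritic cell list had no member past 2-fold among 11, with Flt3 at 191 and Zbtb46 at 106 CPM. Of the Notch, Wnt and Hedgehog list, 3 genes passed the filter and none was past 2-fold. Of 8 regulatory genes above the filter, Itgb8 was at least 2-fold higher and Socs3 lower (18.2 against 40.7 CPM). Among all genes, 12.9% were higher and 7.05% lower.

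The highest and lowest ratios belonged mostly to pseudogenes. Of the 20 genes with the highest ratio in which no single cell held 20% or more of the UMIs, 13 were pseudogenes in RefSeq, 4 had no RefSeq match by symbol, and the others were Rpl36a, Tmem65 and Cdc14b. Of the 10 with the lowest ratio, 6 were pseudogenes, 1 had no match, and 3 were Lyz1, Lyz2 and Ifitm3. Among all pseudogenes above the filter, 75 of 353 were at least 2-fold higher and 122 lower, that is 55.8% past 2-fold, against 15.7% of 3850 protein-coding genes outside the ribosomal and mitochondrial sets, where 453 (11.8%) were higher and 151 (3.92%) lower. When levels were rescaled to the protein-coding genes, 5100 of them passed the filter. Of these, 426 (8.35%) were higher and 367 (7.20%) lower, so the excess of higher genes depended on the scaling. Pseudogenes took a median of 9.26% of the UMIs of a cluster 6 cell and 13.3% of those of another labelled cell.

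**Figure D4:**
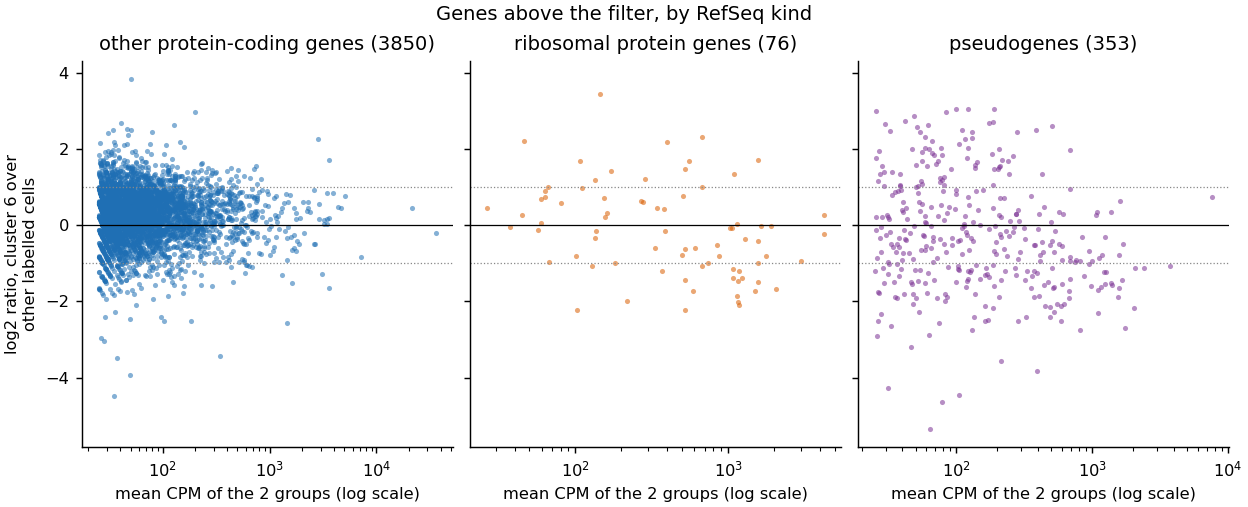
Log2 ratio of cluster 6 over the other labelled naive cells against mean CPM (log axis) for genes above the filter, in 3 panels by RefSeq kind, with dotted lines at 2-fold. Of the pseudogenes 55.8% lie past 2-fold and of the ribosomal protein genes 44.7%, on both sides, against 15.7% of the other protein-coding genes.

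Copies of the same gene went in opposite directions. Rpl36a, a ribosomal protein gene (chromosome X, 134585654 to 134588062), had a median of 240 CPM over the 55 cells against 0 in the others and a log2 ratio of 3.43 (3.09 to 3.75). Its copies Rpl36a-ps1, Rpl36a-ps2 and Rpl36a-ps3 had log2 ratios of -1.11, -0.96 and -0.52. Summed, the 4 genes were at 1136 against 1574 CPM. Rpl17-ps9 had a log2 ratio of 2.70 and Rpl17-ps3 one of -0.93, and the Rpl17 family summed to 939 against 1044 CPM. In contrast Rpl32 and Rpl32-ps were both lower, with log2 ratios of -1.87 and -3.56. The translation-linked gene Tpt1 (chromosome 14, 75845256 to 75848303) was at a median of 331 against 2345 CPM, and Eef1a1 was summed at 839 against 2406 CPM. Gm11964 was found in 1 of 55 cells and in 76.9% of the others. Since such copies share sequence, the level of each is uncertain, and how reads that fit several copies were counted is not given in the sources used here.

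Outside these families, and among genes in which no cell held 20% or more of the UMIs, the protein-coding genes with the highest ratios were Cdc14b, Tmem65, Itgb8, Pgk1 and Actg1, and others were Mtss1 (239 against 52.7 CPM), F11r, a junction adhesion molecule (173 against 40.3 CPM), and Adam15 (69.7 against 16.3 CPM). Pgk1, a glycolytic enzyme, was at 133 against 24.6 CPM. The matrix protease Mmp14 had 93.9 against 6.56 CPM and was found in 23.6% against 5.59% of cells, with 22.6% of its UMIs in 1 cell, and its log2 ratio of 3.84 was above all of these. Lower were Ifitm3 (6.06 against 67.8 CPM), the chemokine-binding receptor Ccrl2 (30.3 against 174 CPM) and the antioxidant Prdx6 (15.1 against 84.2 CPM). By the ratios before rescaling, the genes lower in cluster 6 were short: the genomic span of the 151 protein-coding genes had a median of 7.96 kb. The median was 27.1 kb for the 453 higher ones and 26.0 kb for the 3246 between.

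Each CD301b class of the cluster was also set against other labelled cells of that class. The log2 ratio of Ccl22 was 1.23 in the 26 CD301bhi, 1.30 in the 19 CD301bint and 2.96 in the 10 CD301blo cells, and that of Ccl5 -1.98, -1.26 and -1.62. For Actg1 it was 1.81, 2.08 and 3.23, and for Itgb8 2.23, 1.95 and 3.74. Irf4 had 1.69, 2.01 and 0.55, the last with an interval from -0.90 to 1.68. Ccl17 differed in direction, with -1.38 in CD301bint and 2.06 in CD301blo cells.

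By Pearson's r of log2(CPM + 1) over the 4485 genes, which share libraries and depth within a group, cluster 6 was closest to naive clusters 1 (0.870) and 2 (0.817) and farthest from cluster 5 (0.728). LCs and cDC1s had 0.779 and 0.768. Of all groups in both libraries, papain cluster 8 was highest, at 0.905, and the other papain clusters had 0.741 to 0.814. Over the protein-coding genes outside the ribosomal and mitochondrial sets, papain cluster 8 had 0.900 and naive cluster 1 0.891. Against cluster 1 alone, 467 of 4489 genes (10.4%) were at least 2-fold higher in cluster 6 and 287 (6.39%) lower. Against clusters 1 and 2 together, 582 of 4419 (13.2%) were higher and 285 (6.45%) lower.

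Papain cluster 8 holds 316 of 6190 labelled papain cells (5.11%), with 50.6% CD301bhi cells. It had a median of 7249 UMIs per cell against 15095 in the other labelled papain cells and 3816 against 3700 antibody counts, so low mRNA depth beside ordinary antibody counts was found there as well. Against those cells, 186 of 4523 genes (4.11%) were at least 2-fold higher and 115 (2.54%) lower. Of 4100 genes above the filter in both libraries, 121 were higher in both clusters, which is 26.6% of the 455 higher in naive cluster 6 and 68.0% of the 178 higher in papain cluster 8. Of the genes lower, 73 were shared, of 292 in naive cluster 6 and of 99 in papain cluster 8 (73.7%). No gene was higher in one and lower in the other. The shared share was lower among protein-coding genes outside the ribosomal and mitochondrial sets, where 49 were higher in both, 13.9% of 352 and 51.6% of 95, and 17 lower in both, 12.7% of 134 and 44.7% of 38. The other shared entries were pseudogenes, ribosomal protein, mitochondrial or other RNA genes, or had no RefSeq match.

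Immune and other named genes compared as follows in papain cluster 8. Itgb8 had a log2 ratio of 2.38, Actg1 of 1.85, mt-Nd3 of 1.62, Hspa8 of 1.40, Irf4 of 1.00 and Ccl22 of 0.82. Ccl5 had -0.91 and Lyz2 -2.13. MHC class II differed between the clusters, with H2-Ab1 at -1.21 in papain cluster 8 and -0.22 in naive cluster 6, and Klf4 at 0.51 and -1.20. Rpl36a was at 3.17. The difference between the clusters' ratios was not tested.

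**Figure D5:**
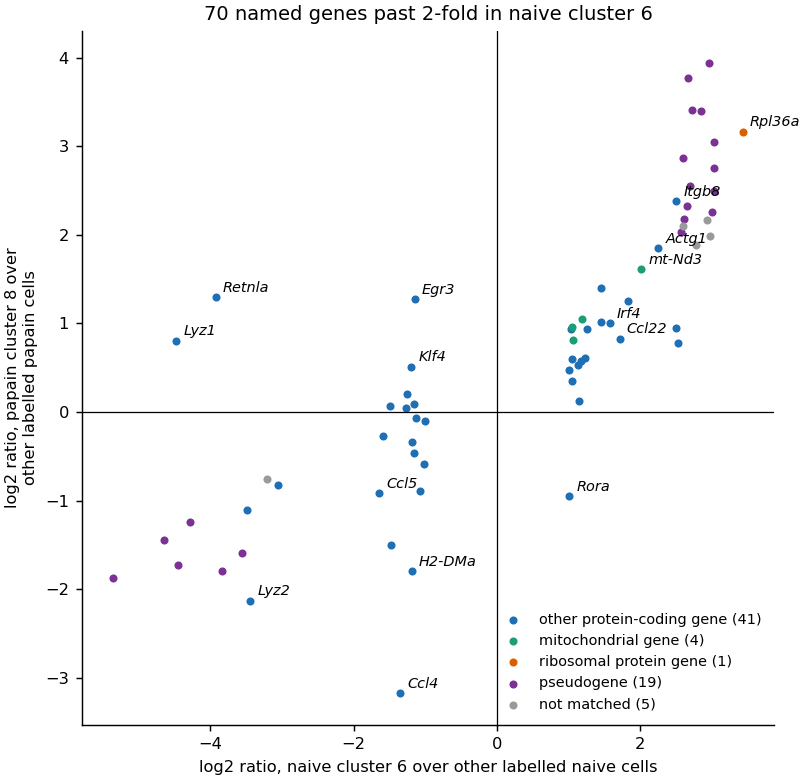
Log2 ratio of naive cluster 6 over other labelled naive cells (horizontal) against that of papain cluster 8 over other labelled papain cells (vertical) for 70 named genes past 2-fold in naive cluster 6, coloured by RefSeq kind. Of the 70 genes, 61 have the same sign on both axes, and Lyz1, Retnla, Egr3, Klf4 and Rora are among the others. The share with the same sign over all genes was not counted, so the 61 are a description only.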

How the data were processed

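Cells were labelled with 12 antibodies, sorted and sequenced as CITEseq, 1 library per condition. Per the labels, the authors used Cell Ranger 3.0.1, Partek and mm10. The expression values deposited are log2 of CPM plus 1, for 18049 genes. Steps of the values gave whole UMIs for 100% of values up to 50 UMIs (within 0.02), and those UMIs were used. Antibody values deposited are natural log (ln) values, and the deposited antibody totals and gene numbers are counts. The deposited expression total is a score and the deposited mitochondrial percent is a share of log2 values, and neither was used as depth. Naive cells had 3637 to 57378 UMIs. Only 4 cells of cluster 6 reached the 10th percentile depth (8355 UMIs), so shares at equal depth used 3600 UMIs, which kept all cells.

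The cluster and CD301b classes are the authors' labels. CPM are summed UMIs of a group per 1000000, with exact Poisson intervals, and their ratios have exact conditional binomial intervals at 95%. With 1 library per condition no test was made. A gene was compared where the mean of the 2 groups was at least 25 CPM. A group at 0 was set to 3 UMIs. Named were the 20 highest and 10 lowest ratios where no cell held 20% or more of the higher group's UMIs, the members of the gene lists and the antibodies' targets. The 15 highest and lowest protein-coding genes, the gene families and Mmp14 were added after their values were seen. The members and lists were chosen with earlier results of these data known. RefSeq (GRCm38.p6) matched 15424 symbols. Ratios were tested on simulated data. Doublets were scored with scanpy 1.11.5 and kept. Alternatives are in the closing section. The 2 libraries shared 2 cell barcodes, 0 of them in cluster 6. Some listed genes are not reported here.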

Additional observations from a re-analysis of the deposited data

How the results depend on the processing

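No paired analysis was possible because each condition is a single library without a replicate number, and for that reason no replicate could be left out. Counts of genes at least 2-fold higher and lower (579 and 316) became 356 higher with 10 CPM added, 2544 and 1113 with no filter beyond 3 UMIs, 157 and 149 at a mean of 100 CPM, 316 and 494 scaled to the median ratio, 1039 and 707 with cells thinned to 8355 UMIs (4 cells of cluster 6 left) and 1301 and 671 in CD301blo cells (10 cells of cluster 6, chosen after seeing the data). The other alternatives stayed within 1.5 times.

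Of 1532 values of 105 named genes under alternatives, 1217 lay within the counting interval, 288 moved and 27 reversed, in 18 genes. Against the 2 closest clusters, the log2 ratio became 1.199 for Ccl4, 1.203 for Egr3, 0.12 for H2-DMa, 0.54 for Lyz1 and 1.31 for Lyz2. Rora became -0.49 with the other clusters weighted equally, -0.55 without cells holding a Cd3e or Trac UMI, -1.08 without its top cell and -1.36 in CD301blo cells. Thinned to 8355 UMIs, it became -0.97 for Bak1, -0.40 for Cxcl3, -3.20 for Fas, -0.68 for Gm3756, 0.10 for H2-DMa, -1.68 for Il15 and -0.92 for Rora. Against the 72 other cells no deeper than 6956 UMIs, of which 64 were in cluster 3 (chosen after seeing the data), it became 0.37 for Ccl4, 0.73 for Cxcl2, 0.52 for Egr3, 0.082 for H2-DMa, 1.26 for Ifitm3, 0.055 for Il1b and 0.84 for Socs3. Within a class, also chosen later, it became 0.039 for Id3 (CD301bhi), -0.032 for Bcl6 and 0.52 for Ccl4 (CD301bint), and -1.50 for Grn (CD301blo). The cause was not tested.

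The antibody difference (cluster 6 minus the others) became -0.0398 in CD301bhi and -0.0208 in CD301blo cells for CD301b, where the classes were cut from CD301b itself, and 0.0195 for CD11b and 0.0110 for CD64 in CD301bhi, 0.0237 (CD301bint) and 0.125 (CD301blo) for CD24, -0.304 for CD8a and -0.0732 for XCR1 in CD301blo cells. As percent of antibody counts it was 0.802 for CD301b, -0.0758 for CD8a and -4.36 for MHC class II.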

Other observations

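A per-cell index, the log2 ratio of the summed CPM of the 20 highest to that of the 10 lowest named genes with 10 CPM added to both, was computed for cells outside the comparison as well. The genes were chosen on cluster 6, so its own values, from 0.98 to 9.75 with a median of 4.96, are given only as the scale. The genes were chosen against the 1969 other labelled naive cells, so a low count among those was fixed by the choice and is a description. Of them, 13 (0.660%) were at or above that median, 11 of them in cluster 3 and 2 in cluster 1. Of 578 naive cDC1s there were 3, of 440 LCs 0, and of 429 naive cells without antibody data 5. In the papain library 54 of 316 cells of cluster 8 (17.1%) were at or above it, with a cluster median of 2.01, and 0 of 5874 other labelled cells, 3 of 881 LCs and 1 of 235 cDC1s.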
